A study of Mus musculus with 6 samples.

Results

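The genes described here are the ligands and receptors of the colony-stimulating factors (CSFs), the growth factors of macrophages and granulocytes. They were 6 genes chosen by symbol from a table of 17119, namely the ligand genes Csf1 and Il34 and the receptor genes Csf1r, Csf2ra, Csf2rb and Csf3r. All 6 passed the filter on low counts, so that 6 of the 12706 genes tested are members. RNA was sequenced from 6 samples of whole mouse liver after 12 weeks on the diet labelled HFHCD, which is high in fat and cholesterol and brings on a fatty, inflamed liver. The 3 wild-type samples are labelled Clec4f-iCre;Cebpb+/+ and came from littermates of the 3 heterozygous samples, labelled Clec4f-iCre;Cebpbfl/+, in which 1 allele of Cebpb is floxed. All animals therefore carried the iCre transgene and ate the same diet, and no group on another diet or without Cre was analysed here. The Clec4f promoter drives Cre in Kupffer cells, which are the liver's own macrophages, so that other liver cells keep both copies of Cebpb, which encodes the transcription factor C/EBPβ. The genotype labels of replicates 2 and 3 in both groups name the driver Clec5f and Clec6f, and the series design, which names Clec4f throughout, was followed. Age, sex and batch are not in the labels, and the labels do not tie each sample to a separate animal, so a p-value speaks only to the spread among these samples, which may be technical.

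CSF1, also called M-CSF, and IL-34 are unrelated in sequence but bind the same receptor, the tyrosine kinase CSF1R, on which Kupffer cells and most other tissue macrophages depend for survival. GM-CSF signals through a specific α chain, encoded by Csf2ra, and the common β chain, encoded by Csf2rb, which the receptors of IL-3 and IL-5 share. G-CSF signals through CSF3R, the receptor best known from neutrophils and also present on monocytes. Factors of the C/EBP family and PU.1, encoded by Spi1, are known to act on the promoters of several of these receptor genes.

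The RefSeq promoter table (build GRCm38.p6) held 3 of the 6 members, the receptor genes Csf3r and Csf2ra and the ligand gene Csf1. Their windows of 300 bases are shown for that reason. Each runs from 250 bases before the start site to 50 bases after it, at chr4:126024409-126024708 (plus strand) for Csf3r, chr19:61228369-61228668 (minus strand) for Csf2ra and chr3:107760420-107760719 (minus strand) for Csf1. Capitals mark the letters GAGGAAG, a short form of the PU.1 motif, searched on both strands.
Csf3r promoter: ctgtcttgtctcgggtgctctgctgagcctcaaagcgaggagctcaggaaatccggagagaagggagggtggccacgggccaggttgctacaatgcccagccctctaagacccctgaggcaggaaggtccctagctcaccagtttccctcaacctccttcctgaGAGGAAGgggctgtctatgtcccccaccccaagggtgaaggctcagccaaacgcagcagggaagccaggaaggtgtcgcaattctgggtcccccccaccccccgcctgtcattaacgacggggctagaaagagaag
Csf2ra promoter: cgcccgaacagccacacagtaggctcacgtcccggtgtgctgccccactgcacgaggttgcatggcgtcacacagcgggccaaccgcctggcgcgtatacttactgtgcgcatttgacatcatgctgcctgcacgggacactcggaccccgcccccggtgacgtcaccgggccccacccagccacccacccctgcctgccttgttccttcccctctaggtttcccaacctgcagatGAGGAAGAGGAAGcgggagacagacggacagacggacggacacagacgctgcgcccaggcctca
Csf1 promoter: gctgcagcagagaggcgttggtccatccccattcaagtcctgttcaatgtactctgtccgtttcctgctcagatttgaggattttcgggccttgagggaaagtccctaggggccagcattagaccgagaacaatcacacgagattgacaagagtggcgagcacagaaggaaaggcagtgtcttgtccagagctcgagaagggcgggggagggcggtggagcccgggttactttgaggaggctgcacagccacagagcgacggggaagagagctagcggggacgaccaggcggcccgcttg

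The PU.1 letters occurred once in the Csf3r promoter, 86 bases before the start site, and in 2 overlapping copies in the Csf2ra promoter, beginning 14 and 8 bases before it. They were not in the Csf1 window. Of 32851 RefSeq promoters of this length, 13.6% held them. The C/EBP letters TTGCNNAA, found in 10.8% of promoters, and the RUNX letters TGTGGTT, found in 5.27%, were in none of the 3 windows. A match of letters is a description of the window and not a bound site.

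Before the members, the libraries and the targeted gene were examined. The libraries held 16895322 to 17750755 counts, every wild-type library being slightly deeper. The hepatocyte list (Alb, Apoa1, Ttr and 7 others) summed to 94665 to 129257 CPM in wild-type and 108619 to 129626 CPM in heterozygous livers, where CPM (counts per unit of library size, on the usual per-million scale) was scaled by TMM, the trimmed mean of M-values. Cebpb measured 506, 308 and 340.4 CPM in the wild-type and 204, 498 and 269 CPM in the heterozygous replicates 1, 2 and 3. The groups overlapped (log2 fold change −0.25 ± 0.37 SE, edgeR adjusted p = 0.864), and since cells without Cre also make Cebpb RNA, this checks the labels only weakly. Clec4f stood at 48.6, 38.5 and 5.42 CPM in wild-type and 4.31, 4.97 and 3.90 CPM in heterozygous livers, so that wild-type replicate 3 lay close to the heterozygous libraries (edgeR adjusted p = 0.260). Acute phase genes summed to 49458 CPM in wild-type replicate 1, against 20050 and 24637 CPM in its group's replicates 2 and 3, and to between 16575 and 25286 CPM in the heterozygous libraries.

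The comparison of the genotypes asks which of these growth factor genes differ in the liver when Kupffer cells carry 1 intact copy of Cebpb. All 4 receptor genes and Il34 were lower in each heterozygous library than in any wild-type library, while Csf1 overlapped. Csf3r alone fell past the threshold, 2.38-fold. The others did not pass, with Csf1r at 2.63-fold, Csf2ra at 2.13-fold, Il34 at 1.81-fold, Csf2rb at 1.62-fold and Csf1 at 1.14-fold lower. The threshold is a Benjamini-Hochberg adjusted p of 0.05 in edgeR's quasi-likelihood test over all genes. By this rule 1 of 6 members was lower, against 0.559% of all tested genes, and 0 of 6 were higher, against 0.0236%. As to overlap, 5 of 6 members were lower in every heterozygous library, against 11.3% of all tested genes. The median log2 fold change, heterozygous over wild-type, was −0.97 over the 6 members and 0.0048 over all tested genes. The other test tool, DESeq2, called 4 members lower (Csf1r, Csf2ra, Csf2rb and Csf3r), against 3.36% of the genes it tested. In whole liver, fewer cells of a type and less RNA per cell cannot be told apart.

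**Figure D1:**
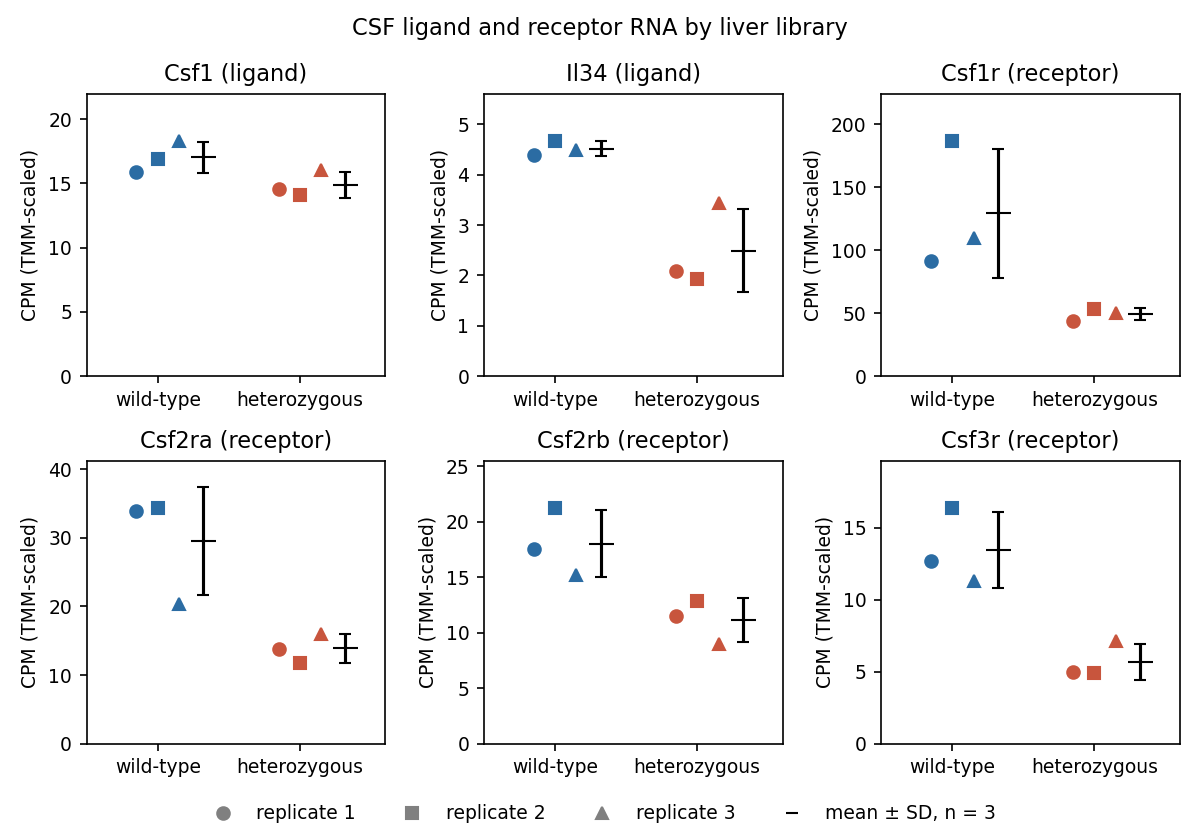
TMM-scaled CPM of the 6 genes in each library, with wild-type in blue, heterozygous in red, the marker shape giving the replicate number, and bars the mean ± SD of 3 libraries; each axis starts at 0. Csf1r spreads from 91.1 to 187 CPM in wild-type livers and from 44.1 to 53.7 CPM in heterozygous livers, while the Csf1 groups overlap.

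Csf1, the main CSF1R ligand in most tissues, made by stromal and endothelial cells among others, was the steadiest member. It measured 15.9, 16.9 and 18.3 CPM in the wild-type replicates 1, 2 and 3. In the heterozygous replicates it measured 14.6, 14.1 and 16.1 CPM. Heterozygous replicate 3 lay above wild-type replicate 1, so the groups overlapped, and the spread within each group was small. The means of 17.0 ± 1.24 and 14.9 ± 1.02 CPM (SD, n = 3) gave a log2 fold change of −0.19 ± 0.13 SE (edgeR adjusted p = 0.601). Its 95% interval ran from −0.47 to 0.09.

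Il34, the second CSF1R ligand, was the least abundant member. It stood at 4.39, 4.68 and 4.49 CPM in wild-type livers. The heterozygous libraries measured 2.10, 1.94 and 3.44 CPM. The wild-type values lay very close together, and heterozygous replicate 3 stood nearer to them than the other heterozygous libraries did, without overlap. The means were 4.52 ± 0.15 and 2.49 ± 0.83 CPM (SD, n = 3), and their log2 fold change, −0.86 ± 0.27, missed the threshold (95% interval −1.46 to −0.25, edgeR adjusted p = 0.183). These values rest on 72 to 86 reads per wild-type library and 32 to 60 per heterozygous library. In the older GENCODE annotation, release M21, the gene overlaps antisense transcripts, from which reads cannot be told apart if the counter did not use strand.

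Csf1r, the receptor of both ligands and a defining gene of macrophages, was the most abundant member and had the largest difference. It measured 91.1, 187 and 109 CPM in the wild-type replicates 1, 2 and 3. The heterozygous replicates stood at 44.1, 53.7 and 49.8 CPM. Wild-type replicate 2 was far above the other libraries of its group, and the lowest wild-type library was still well above the highest heterozygous one. The means were 129 ± 50.9 and 49.2 ± 4.82 CPM (SD, n = 3), a coefficient of variation of 39.4% in wild-type against 9.80% in heterozygous livers. The log2 fold change of −1.39 ± 0.26 (95% interval −2.01 to −0.77) missed the threshold in edgeR (adjusted p = 0.0688) and passed in DESeq2 (adjusted p = 9.80e-06). Without wild-type replicate 2 the log2 fold change was −1.02 (edgeR adjusted p = 0.0821).

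The opposite strand at Csf1r holds Hmgxb3, a gene of the count table that overlaps it in the GENCODE annotation. Hmgxb3 measured 15.4, 14.0 and 15.2 CPM in wild-type and 15.5, 18.7 and 14.9 CPM in heterozygous livers. Its level was thus well under that of Csf1r and did not follow it, being overlapping between groups (edgeR adjusted p = 0.760).

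Csf2ra, the GM-CSF-specific chain, measured 33.9, 34.3 and 20.4 CPM in the wild-type replicates 1, 2 and 3. The heterozygous replicates measured 13.9, 11.8 and 16.0 CPM. Wild-type replicate 3 lay between the other wild-type libraries and the heterozygous group, as it did for Clec4f, and the groups did not overlap. The means of 29.5 ± 7.90 and 13.9 ± 2.12 CPM (SD, n = 3) differed by a log2 fold change of −1.09 ± 0.21 (95% interval −1.58 to −0.60, edgeR adjusted p = 0.0615). The gene passed in edgeR without wild-type replicate 3 (−1.30, adjusted p = 0.0421), where 0.148% of genes were called lower, and in DESeq2 (adjusted p = 0.000634).

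Csf2rb, the common β chain of the GM-CSF, IL-3 and IL-5 receptors, measured 17.6, 21.2 and 15.2 CPM in wild-type livers. The heterozygous libraries stood at 11.5, 12.8 and 8.95 CPM. The gap between the groups was narrow, from 12.8 to 15.2 CPM, but no library crossed it. The log2 fold change of −0.70 ± 0.18 (95% interval −1.11 to −0.29) was the smallest of the receptor genes and did not pass in edgeR (adjusted p = 0.118), while in DESeq2 it did (adjusted p = 0.0420).

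The mouse has a near-identical copy, Csf2rb2, which encodes a β chain used by IL-3 alone, so reads of the pair may have been split or dropped and both levels are uncertain. Csf2rb2 measured 11.8, 9.96 and 6.29 CPM in wild-type and 2.62, 4.78 and 3.96 CPM in heterozygous livers. Its log2 fold change of −1.30 ± 0.29 also missed the threshold (edgeR adjusted p = 0.0821). When the reads of both genes were summed, a step chosen after seeing the data, the pair stood at 27.3 ± 5.13 and 14.9 ± 2.45 CPM (SD, n = 3). The summed difference was 1.84-fold (log2 fold change −0.88 ± 0.18, edgeR adjusted p = 0.0598), larger than that of Csf2rb by itself.

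Csf3r, the G-CSF receptor, measured 12.7, 16.4 and 11.3 CPM in the wild-type replicates 1, 2 and 3. The heterozygous replicates measured 4.95, 4.91 and 7.11 CPM. Each group kept to a narrow range and the groups were well apart, heterozygous replicate 3 being the nearest to the wild-type libraries. The means of 13.5 ± 2.61 and 5.66 ± 1.26 CPM (SD, n = 3) gave a log2 fold change of −1.25 ± 0.21 (95% interval −1.73 to −0.77, edgeR adjusted p = 0.0494). This p lies at the edge of the threshold, in a test that on simulated counts made more false calls than its nominal rate. It rose to between 0.0617 and 0.218 in edgeR when any of the 3 wild-type libraries or heterozygous replicate 1 or 2 was left out. Without heterozygous replicate 3, where 0.829% of genes were called lower, it was 0.0394, and DESeq2 gave an adjusted p of 0.000101.

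**Figure D2:**
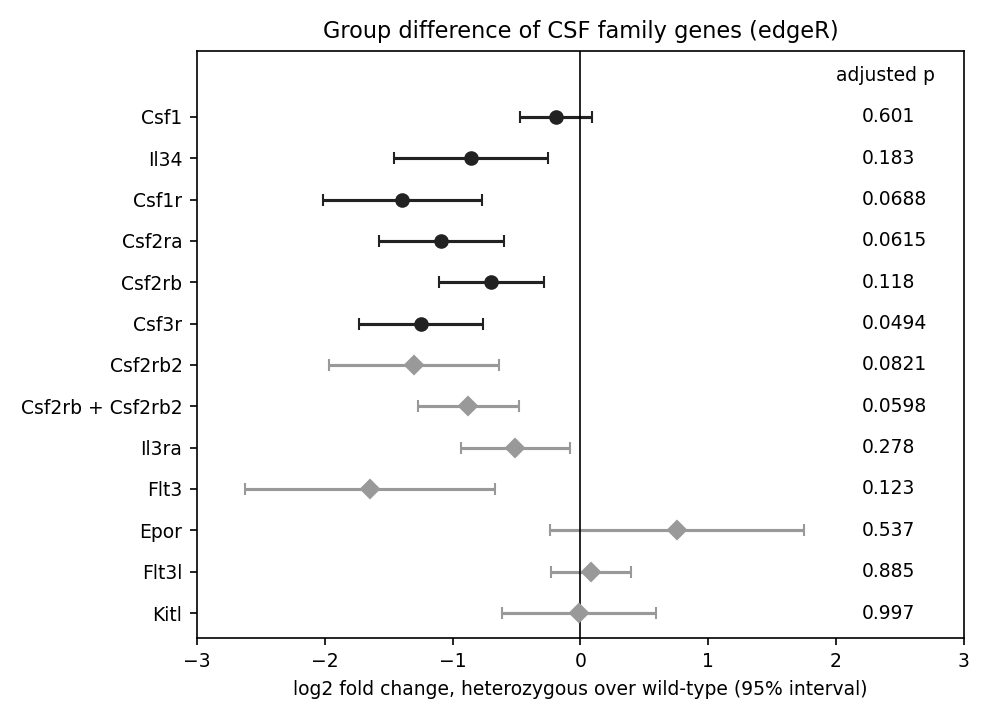
Log2 fold change, heterozygous over wild-type, with 95% intervals from edgeR and the adjusted p at the right, for the 6 genes (black circles) and related genes (grey diamonds). The intervals of Il34 and the 4 receptor genes lie below 0 before adjustment over all genes, while that of Csf1 crosses 0.

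Levels of different genes were compared as CPM per kilobase of exon, with exon lengths from GENCODE M21, an annotation of the older build. In wild-type livers Csf1r led at 22.4 ± 8.81 CPM per kilobase, followed by Csf2ra at 10.3 ± 2.75 (SD, n = 3). Csf3r at 3.73 ± 0.72 and Csf1 at 3.22 ± 0.24 CPM per kilobase did not differ beyond their spread, nor did Csf2rb at 2.47 ± 0.42 and Il34 at 2.31 ± 0.07. In heterozygous livers Csf1r at 8.52 ± 0.83 and Csf2ra at 4.83 ± 0.74 CPM per kilobase kept the first places. Csf1 came next at 2.82 ± 0.19, above Csf3r at 1.57 ± 0.35, Csf2rb at 1.53 ± 0.27 and Il34 at 1.27 ± 0.42 CPM per kilobase, and the last 3 overlapped. Thus Csf1 and Csf3r stood side by side in wild-type livers, and the ranges of their levels were apart in heterozygous livers, at 2.67 to 3.04 and 1.36 to 1.97 CPM per kilobase.

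Ratios of counts within a library need no scaling between libraries and show whether members differed by unequal amounts. The smallest two-sided p that an exact permutation test of 3 against 3 libraries can give is 0.1, so no ratio could pass the threshold, and p-values were adjusted over 6 ratios. The log2 ratio of Csf1r to Csf1 was 2.52, 3.47 and 2.57 in wild-type and 1.60, 1.92 and 1.63 in heterozygous replicates, a difference of −1.14 without overlap (exact p = 0.1, adjusted 0.3). The receptor therefore stood lower against this ligand in every heterozygous library. The log2 ratio of Csf1 to Il34 was 1.85, 1.84 and 2.02 in wild-type and 2.78, 2.84 and 2.21 in heterozygous livers, a difference of 0.71 without overlap (exact p = 0.1, adjusted 0.3). Csf1 thus stood higher against Il34 in every heterozygous library.

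The remaining ratios overlapped between groups. The log2 ratio of Csf1r to Il34 averaged 4.76 ± 0.49 in wild-type and 4.33 ± 0.46 in heterozygous livers (SD, n = 3; exact p = 0.5). That of Csf2rb to Csf2ra averaged −0.69 ± 0.26 and −0.32 ± 0.48 (exact p = 0.3), and that of Csf3r to Csf1r −3.21 ± 0.34 and −3.13 ± 0.32 (exact p = 0.7). Csf1r was also set against the mean log2 count of 11 genes expressed by macrophages in general, among them Adgre1, Cd68 and C1qa. This log2 ratio was 1.74, 2.23 and 2.05 in wild-type and 1.80, 1.89 and 1.76 in heterozygous livers, a difference of −0.20 (exact p = 0.4). The edgeR log2 fold change of Csf1r on its own was −1.39, and 6 of these macrophage genes fell past the threshold themselves. The difference relative to these genes, −0.20, is one of mean log2 ratios, a measure unlike the edgeR value. That relative difference ran from −0.33 without wild-type replicate 1 to −0.086 without wild-type replicate 2.

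**Figure D3:**
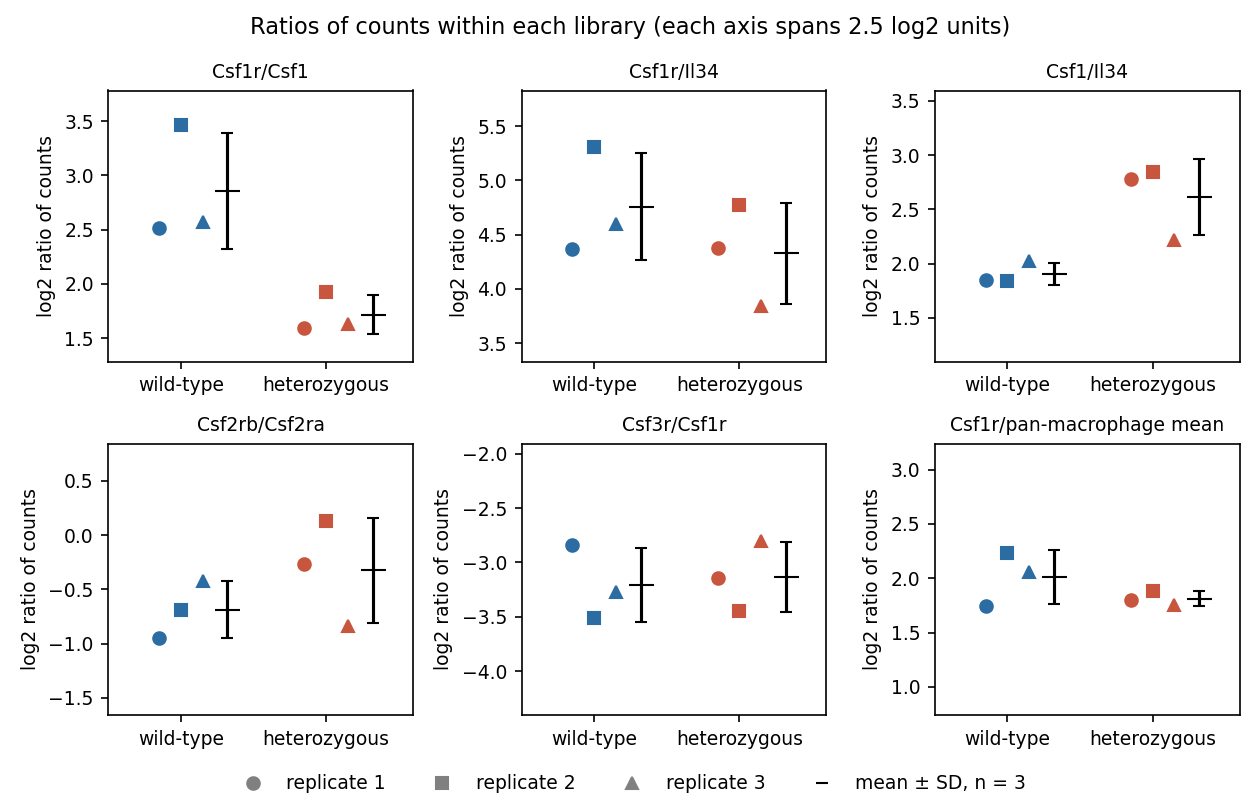
Log2 ratios of counts between genes within each library, by genotype, with marker shapes for replicates and bars for the mean ± SD of 3 libraries; every axis spans the same number of log2 units. Csf1r/Csf1 is lower and Csf1/Il34 higher in each heterozygous library, while Csf1r against the macrophage mean overlaps.

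Marker genes of the cells that carry these receptors were read from lists beside the members. The 11 general macrophage genes summed to 493 to 750 CPM in wild-type and 229 to 296 CPM in heterozygous livers, with 6 lower and 0 higher past the threshold and a median log2 fold change of −1.19. Adgre1, a classic surface marker of mouse macrophages, measured 21.3, 87.0 and 27.1 CPM in the wild-type replicates 1, 2 and 3. In the heterozygous replicates it measured 11.6, 19.5 and 11.8 CPM (edgeR adjusted p = 0.379). The groups did not overlap, but heterozygous replicate 2 lay close to the lowest wild-type library. It was highest in the library in which Csf1r was highest. The 9 monocyte genes summed to 257 to 440 CPM in wild-type and 99.4 to 127 CPM in heterozygous livers, with 2 lower, Ccr2 and Lyz2. Lyz2, at 262 ± 81.2 and 81.9 ± 11.6 CPM (SD, n = 3), made up most of the sum in every library. Ly6c2 had the smallest difference of these genes (log2 fold change −0.68, edgeR adjusted p = 0.447). Its groups were barely apart, with wild-type replicate 3 at 2.57 CPM and heterozygous replicate 3 at 2.52 CPM. The 10 Kupffer cell genes summed to 479 to 770 and 358 to 579 CPM, which overlapped, and Il18bp was the 1 gene called lower. Lower in every heterozygous library were 7 of the 10, against 11.3% of all tested genes. The median log2 fold change of the 10 genes was −0.98. The complement gene C6, which hepatocytes are also known to make, was the most abundant of them in every library, at 420.4, 322 and 254 CPM in the wild-type and 399.6, 425 and 242 CPM in the heterozygous replicates 1, 2 and 3. Without C6, a step chosen after seeing the data, the other 9 genes summed to 224 to 448 CPM and 116 to 154 CPM, which did not overlap. Cd5l was the largest part of this sum in every library, at 145, 260 and 138 CPM in wild-type and 83.4, 87.5 and 61.6 CPM in heterozygous livers. Timd4 overlapped between the groups, as did Folr2, which was higher in its heterozygous mean (6.95 ± 3.31 and 9.25 ± 2.90 CPM, SD, n = 3). None of these lists had a member at 0 in every library. Their part in the differences of Csf1r and Csf2ra was not tested. The ratio above was taken for Csf1r only and could not pass the threshold, so it describes these libraries and decides nothing.

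Neutrophil markers were scarce, with 4 of 11 genes passing the filter on low counts and 0 called by edgeR. The 11 genes summed to 20.9, 8.87 and 25.3 CPM in the wild-type replicates 1, 2 and 3 and to 4.19, 4.42 and 5.91 CPM in the heterozygous replicates. Wild-type replicate 2 thus had the lowest sum of its group and the highest Csf3r level. S100a8, a calcium-binding protein of neutrophils and monocytes, measured 3.93 ± 1.47 and 1.20 ± 0.53 CPM (SD, n = 3; edgeR adjusted p = 0.0978). Ly6g, the defining mouse neutrophil marker, had 3 reads in the 6 libraries together. The part of neutrophil number in the fall of Csf3r was not tested.

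Dendritic cell genes, of cells that respond to GM-CSF and FLT3 ligand, had 10 of 10 members tested and 0 called. Their median log2 fold change was −1.41, and their sums were 1410 to 2725 and 349 to 771 CPM. Cd74, at 1425 ± 662 and 346 ± 179 CPM, and H2-Ab1, at 388 ± 94.4 and 129 ± 52.7 CPM (SD, n = 3), made up most of these sums. Zbtb46 measured 6.64 ± 1.19 and 6.42 ± 0.95 CPM (edgeR adjusted p = 0.962). It overlapped between the groups, as did Cd209a and Siglech, while the other genes of the list were lower in every heterozygous library. T and NK cell genes had 8 tested, 0 called and sums of 19.1 to 30.0 and 12.7 to 15.2 CPM. B and plasma cell genes had 5 tested, 0 called and sums of 20.6 to 45.5 and 13.5 to 20.2 CPM. Mast cell, basophil and eosinophil genes, cells known for IL-3 and IL-5 receptors, summed to at most 0.549 CPM in any library, and Cpa3 and Mcpt4 were at 0 throughout.

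Stellate cell genes, from cells that can make Csf1, had 0 of 11 called, a median log2 fold change of −0.40 and sums of 556 to 717 and 403 to 536 CPM. Sinusoidal endothelial genes had 0 of 11 called and a median of 0.27. Cholangiocyte genes had 0 of 6 called and a median of −0.51, and hepatocyte genes 0 of 10 and a median of 0.07. The 14 acute phase genes had 0 called and a median of −0.68. Csf1 was at its lowest wild-type level in replicate 1, the library with the highest acute phase sum.

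The cytokines that bind the other receptors were close to absent from these libraries. Csf2, which encodes GM-CSF, had 1 read in wild-type replicate 2 and 0 in the other libraries. Csf3, which encodes G-CSF, had 1 read each in heterozygous replicates 1 and 3. With 0 reads, a level of up to 0.163 to 0.183 CPM per library (3 reads) is allowed, counting error only, so no difference was detectable at this depth. Among related ligands, Flt3l, the growth factor of dendritic cells, measured 11.3 ± 0.28 and 12.0 ± 1.13 CPM, and Kitl, the stem cell factor, 1.89 ± 0.21 and 1.88 ± 0.19 CPM (SD, n = 3). Thpo, the platelet growth factor made by hepatocytes, measured 25.1 ± 7.29 and 25.7 ± 4.25 CPM. Of 8 genes in this list 3 were tested and 0 passed, with edgeR adjusted p-values of 0.885, 0.997 and 0.979 for Flt3l, Kitl and Thpo.

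Of 7 related receptor genes 5 were tested and 0 passed in edgeR, with a median log2 fold change of −0.51. Lower in every heterozygous library were 3 of them, against 11.3% of all tested genes. Flt3, the receptor of FLT3 ligand on dendritic cells and progenitors, averaged 2.33 ± 0.57 CPM over the wild-type libraries and 0.737 ± 0.454 CPM over the heterozygous ones (SD, n = 3; edgeR adjusted p = 0.123). Il3ra, the IL-3-specific chain, measured 8.05, 6.37 and 6.07 CPM in wild-type and 4.83, 4.91 and 4.65 CPM in heterozygous ones (edgeR adjusted p = 0.278). The groups did not overlap for either gene, and Csf2rb2, given above, is the third. Epor, the erythropoietin receptor gene, went the other way in its means, at 0.593 ± 0.263 and 1.01 ± 0.20 CPM (edgeR adjusted p = 0.537).

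IL-34 can also bind syndecan-1 and a receptor phosphatase, and ADAM17 sheds CSF1R from the cell surface. Of 5 such genes 4 were tested and 0 passed in edgeR. Sdc3, a relative of syndecan-1 that macrophages express, measured 76.9, 145 and 89.3 CPM in wild-type and 51.9, 61.3 and 46.3 CPM in heterozygous ones (edgeR adjusted p = 0.128). Its highest library was again wild-type replicate 2. Sdc1 at 241 ± 57.4 and 242 ± 30.5 CPM and Adam17 at 21.7 ± 2.70 and 20.0 ± 0.55 CPM (SD, n = 3) overlapped, and Adam10 measured 26.3 ± 1.34 and 22.0 ± 2.71 CPM.

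Genes listed as CSF1R signalling adaptors and kinases were mostly lower in value. Of 26 genes 25 were tested, 3 fell past the threshold and 0 rose, and the median log2 fold change was −0.97. Lower in every heterozygous library were 20 of the genes, against 11.3% of all tested genes. Many genes of the list are shared with other receptors of leukocytes, so it is not specific to CSF1R. Pik3r5, a regulatory subunit of PI3-kinase γ, fell from 9.39, 10.1 and 6.35 CPM to 2.68, 3.09 and 3.38 CPM (log2 fold change −1.49 ± 0.23, edgeR adjusted p = 0.0416). Pik3cd, the leukocyte PI3-kinase δ, fell from 19.5, 26.5 and 17.2 CPM to 7.92, 6.54 and 10.3 CPM (−1.35 ± 0.22, edgeR adjusted p = 0.0445). Vav1, a signalling protein of blood cells, fell from 12.0, 15.5 and 9.74 CPM to 4.37, 3.45 and 5.68 CPM (−1.46 ± 0.24, edgeR adjusted p = 0.0489). In all 3 genes the groups were well apart and wild-type replicate 2 was highest. Plcg2, a phospholipase downstream of the receptor, measured 7.72 ± 1.65 and 3.40 ± 0.32 CPM (edgeR adjusted p = 0.0539) and did not pass.

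The JAK-STAT genes used by the GM-CSF and G-CSF receptors mostly overlapped between the groups. All 16 were tested, 0 passed in edgeR, and the median log2 fold change was −0.20. Lower in every heterozygous library were 3 of the 16, against 11.3% of all tested genes. Socs1, a feedback inhibitor, measured 2.68, 4.30 and 1.86 CPM in wild-type and 1.22, 1.33 and 1.72 CPM in heterozygous ones (edgeR adjusted p = 0.234). Mcl1, a survival gene, stood at 126 ± 8.98 and 104 ± 5.41 CPM and Cish, a STAT5 target, at 8.01 ± 1.86 and 4.67 ± 2.12 CPM (SD, n = 3). Their edgeR adjusted p-values were 0.285 and 0.364. Most genes of this list are expressed by hepatocytes as well.

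Of 14 transcription factor genes known to act on CSF receptor genes, 13 were tested, 1 fell and 0 rose, with a median log2 fold change of −0.05. Spi1, which encodes PU.1, fell from 19.0, 22.8 and 16.3 CPM to 7.98, 5.75 and 9.81 CPM (log2 fold change −1.30 ± 0.21, edgeR adjusted p = 0.0463). The groups did not overlap, and wild-type replicate 2 was the highest library, as for Csf1r, Csf2ra, Csf2rb and Csf3r. Irf8, a factor of monocytes and dendritic cells, measured 25.6, 26.5 and 24.1 CPM and 9.09, 14.1 and 16.6 CPM (edgeR adjusted p = 0.0728). Runx1 measured 2.57 ± 0.63 and 1.06 ± 0.18 CPM (edgeR adjusted p = 0.104). Cebpe, the C/EBP factor of late granulocyte development, was higher in every heterozygous library, at 4.64, 9.14 and 7.61 CPM in wild-type and 16.4, 11.8 and 11.4 CPM in heterozygous livers, without passing (edgeR adjusted p = 0.159).

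Among genes known as CSF1R-dependent or induced in macrophages, 8 of 10 were tested, 1 fell and 0 rose, with a median log2 fold change of −0.55. Ccr2, the chemokine receptor of monocytes, fell from 5.98, 6.75 and 6.18 CPM to 1.86, 2.18 and 2.24 CPM (log2 fold change −1.59 ± 0.20, edgeR adjusted p = 0.0308). Chil3, a chitinase-like protein of monocytes and alternatively activated macrophages, measured 1.20 ± 0.31 and 0.154 ± 0.133 CPM (edgeR adjusted p = 0.0810). Cx3cr1, the fractalkine receptor, stood at 5.94 ± 2.37 and 2.36 ± 1.37 CPM, and Ccl2, a ligand of CCR2, at 3.49 ± 0.39 and 1.90 ± 0.935 CPM (SD, n = 3; edgeR adjusted p = 0.241 and 0.365).

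**Figure D4:**
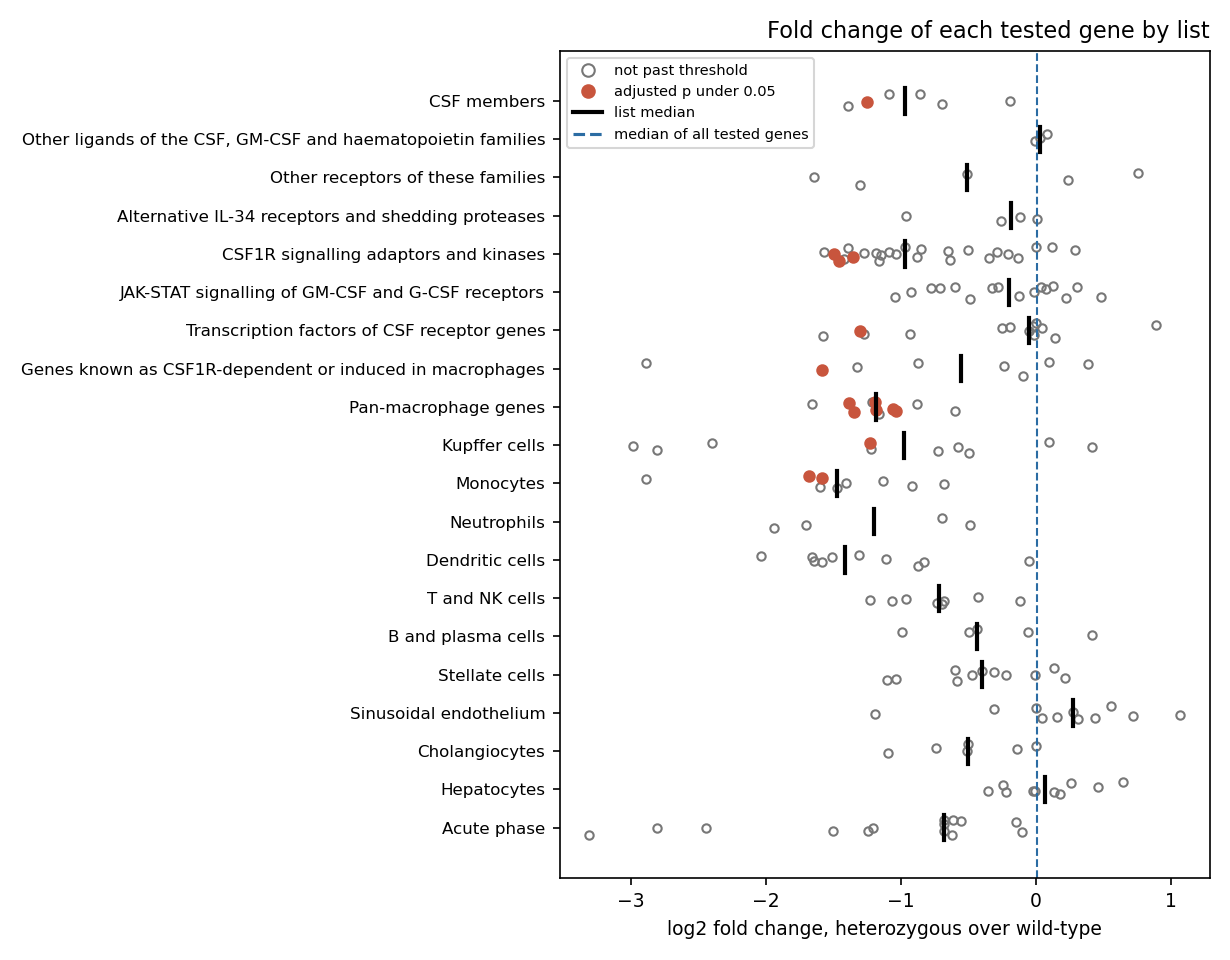
Log2 fold change, heterozygous over wild-type, of each tested gene of the 6 members and of the pathway and cell type lists; filled red points passed an adjusted p of 0.05, black bars are list medians and the dashed line is the median of all tested genes. The member median of −0.97 lies beside those of the CSF1R signalling list (−0.97) and the macrophage list (−1.19), and away from that of the related ligands (0.03).

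The genes whose log2 CPM followed each member most closely over the 6 libraries were then listed, as a description only, since the points share the genotype difference and the library. Among the closest matches of Csf1r were Fam102b (Pearson r = 0.995) and Tpcn1 (0.990), and Csf3r was matched best by Ms4a6b (0.998), Slfn2 (0.997) and Pirb (0.996). Csf2ra was matched best by Fam78a (0.998), Dusp2 (0.996) and Marchf1 (0.992), and Csf2rb by Vsig4 (0.990), Ncoa7 (0.987) and Btbd9 (0.986). Il34 was matched best by Clec9a (0.998), Ncf4 (0.997) and Abcc5 (0.996), and Csf1 by Robo2 (0.996), Trim47 (0.994) and Cx3cr1 (0.986). Such values are common at 6 points: of 12154 genes, between 41 (Csf2rb) and 261 (Csf3r) reached an r of 0.95.

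Among the members themselves, Csf3r ran with Il34 (r = 0.951), Csf2ra (0.95) and Csf1r (0.930) over the 6 libraries. After the group means were taken out, these were 0.791, 0.740 and 0.573. Csf1r and Csf1 had an r of 0.707 over all libraries and of 0.096 without the group means. Csf2rb and Csf1 went opposite ways within the groups (−0.753). These are descriptions of 6 libraries that share the genotype difference.

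**Figure D5:**
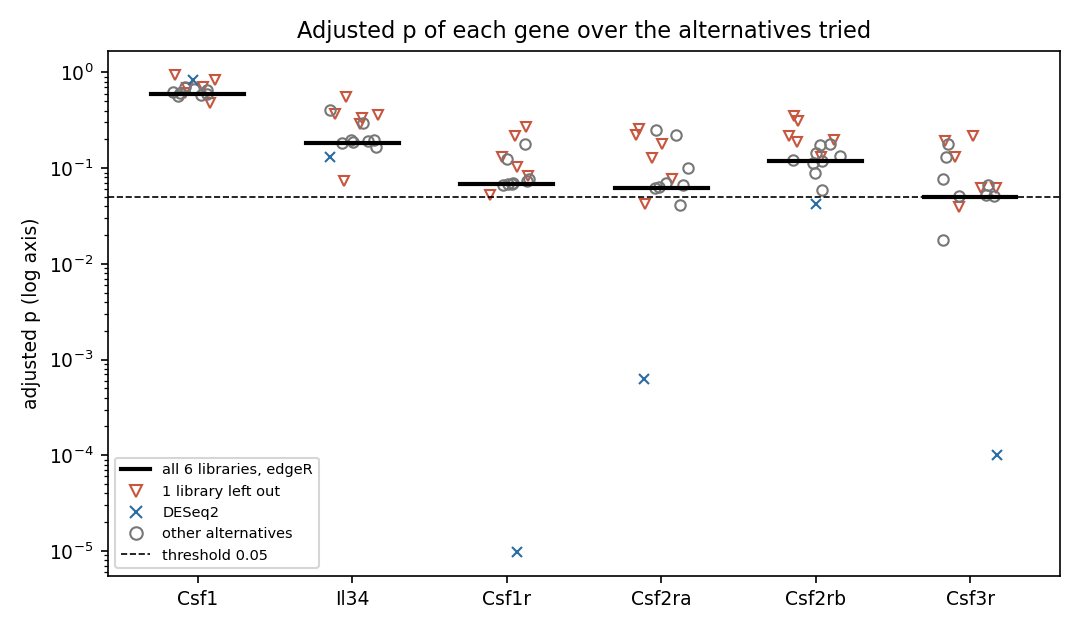
Adjusted p of each member, on a log axis, with all 6 libraries in edgeR (black bars), with 1 library left out (triangles), in DESeq2 (crosses) and under the other alternatives (circles); the dashed line is the threshold of 0.05. Csf1 and Il34 stay above the line throughout, Csf3r lies on it, and the DESeq2 values of Csf1r, Csf2ra and Csf3r lie far below it.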

How the data were processed

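The authors deposited 1 table of raw counts, as whole reads for each gene symbol in 6 columns. The tools used were HTSeq 0.9.1, HISAT2 2.2.1.0 and Trimmomatic 0.36, and the build was GRCm39, per the submitters' processing notes. Neither annotation nor strand setting is given in the sources used here. Libraries were poly(A)-selected and stranded, per the labels' protocols. Groups and replicate numbers came from the titles. In R 4.3.3, genes were filtered (filterByExpr), scaled by TMM and tested over all genes with edgeR 4.0.16 (glmQLFit, robust; glmQLFTest), with Benjamini-Hochberg adjustment at 0.05. An SE was taken as the size of the log2 fold change over the root of F. The test was checked on simulated counts, where it recovered the fold sizes but the share of unchanged genes among its calls was above the nominal rate, so calls near the threshold are less firm. Alternatives used RLE and upper-quartile scaling, other filters, DESeq2 1.42.0, limma 3.58.1 (voom), a non-robust fit, a replicate block and fewer libraries. Ratios used a pseudocount of 0.5. Named genes were the members, Cebpb and Clec4f, up to 4 genes of each list with the smallest p plus those called, and the 3 most alike genes per member, of which some are not reported here; Hmgxb3, Adgre1, Ly6g, Cpa3 and Mcpt4 were added after their values were seen. The members and lists were chosen with earlier results of these data known. No 2 libraries agreed within sampling noise (chi-square per degree of freedom at least 22.1).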

Additional observations from a re-analysis of the deposited data

How the results depend on the processing

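All 6 members kept a negative log2 fold change in each of 15 alternatives, and Csf1 and Il34 passed in none. Csf3r lost its call with RLE scaling (−1.24, adjusted p = 0.0513), upper-quartile scaling (−1.25, 0.0525), at least 1 CPM in 3 libraries (−1.25, 0.0510), limma-voom (−1.25, 0.0769), a non-robust fit (−1.25, 0.0668) and with both wild-type replicate 1 and heterozygous replicate 2 removed (−1.18, 0.132). With 1 library left out it ran from −1.45 to −1.08, and it kept its call with no filter on low counts (adjusted p = 0.0176), in DESeq2 and without heterozygous replicate 3. Csf2ra gained a call with no filter (−1.07, adjusted p = 0.0410; 1.14% of genes lower), in DESeq2 (−1.08) and without wild-type replicate 3, its range with 1 library left out being −1.30 to −0.96. Csf1r (−1.38) and Csf2rb (−0.68) gained one in DESeq2. Over all genes edgeR called 74, against 50 with RLE scaling, 37 with upper-quartile scaling, 211 with no filter, 48 at 1 CPM, 523 in DESeq2, 20 in the non-robust fit, 4 without the 2 libraries and 0 in limma-voom (1686 at an unadjusted p under 0.05), and 0 to 122 with 1 library left out (0 without heterozygous replicate 1 or 2, with 1104 and 1601 unadjusted). The log2 ratio of Csf3r to Csf1r, 0.075 higher in heterozygous livers, turned to −0.077 without wild-type replicate 2 and −0.089 without heterozygous replicate 3 (range −0.089 to 0.26). With 1 library left out, the difference in the log2 ratio of Csf1r to Il34 ran from −0.65 to −0.15 and that of Csf2rb to Csf2ra from 0.14 to 0.62. The cause of these shifts was not tested.

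Same-numbered libraries did not deviate together (correlations −0.21, −0.31 and 0.19), so the numbers were not used as pairs. With the replicate number as a block edgeR called 0 genes (1427 unadjusted), and Csf3r stood at −1.25 (adjusted p = 0.178). Depth limits Csf2 and Csf3, which were at or under 1 read per library.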
